A study of Homo sapiens with 12 samples.

Results

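The transcripts of 8 genes of DNA repair were followed in RKO cells given thymoquinone (TQ), 5-fluorouracil (5-FU) or both: MSH3, MSH6, PMS1 and EXO1 of mismatch repair, and the glycosylase genes UNG, SMUG1, TDG and MBD4. A probe set was taken as a member where the platform's annotation names 1 of these genes and no other, which gave 15 of the 22215 probe sets tested and 8 of the 11963 genes. MBD4 has 4 such probe sets, MSH6 3, MSH3 and TDG 2 each, and PMS1, EXO1, UNG and SMUG1 1 each. Each gene is read from the brightest of its probe sets over the 12 arrays, its lead probe set. RKO is an established colorectal carcinoma line, so that every value comes from a single line. The groups hold 3 arrays each: cells with TQ at 20 µM, cells with 5-FU at 10 µg/mL (76.8 µM), cells given both at these doses together (TQ+5-FU), and control cells. All were harvested after 24 h. Control cells are untreated by the labels and had the solvent DMSO by the methods. The methods speak of independent biological replicates in general, but the labels do not say which arrays come from separate cultures, so the p-values cover array-to-array spread only, which may be technical.

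Mismatch repair removes errors that DNA polymerases leave behind. MutS-type heterodimers find the mispair: MSH6 belongs to the complex that binds base mismatches and short loops, and MSH3 to the one that binds longer loops. MutL-type partners such as PMS1 join them, and the exonuclease EXO1 cuts the faulty strand away. The glycosylases UNG, SMUG1, TDG and MBD4 lift uracil, 5-fluorouracil or thymine out of DNA and leave an abasic site, which base excision repair then fills. 5-FU blocks thymidylate synthase, so that uracil and fluorouracil reach DNA, and RKO is known as a line deficient in mismatch repair. TQ is a quinone of black cumin seed.

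The stretches of 120 bases just upstream of the start of transcription are shown for 4 members, MBD4, TDG, PMS1 and MSH6, because these are genes whose TQ arrays all lay above the control arrays (values in the paragraphs on TQ) and because each holds a CCAAT box. They were read from RefSeq on GRCh38.p14, 5′ to 3′ in the direction of the gene. Capitals mark CCAAT on either strand, which reads ATTGG where it lies on the other strand, and CACGTG.
MBD4, chr3:129439949-129440068, minus strand: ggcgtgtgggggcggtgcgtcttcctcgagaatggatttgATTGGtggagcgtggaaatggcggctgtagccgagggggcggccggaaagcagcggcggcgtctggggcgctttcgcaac
TDG, chr12:103965752-103965871, plus strand: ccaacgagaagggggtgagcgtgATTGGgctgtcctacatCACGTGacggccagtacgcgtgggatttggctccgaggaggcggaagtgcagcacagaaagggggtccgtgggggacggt
PMS1, chr2:189784330-189784449, plus strand: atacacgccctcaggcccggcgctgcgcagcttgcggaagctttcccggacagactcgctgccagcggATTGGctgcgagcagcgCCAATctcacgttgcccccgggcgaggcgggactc
MSH6, chr2:47783025-47783144, plus strand: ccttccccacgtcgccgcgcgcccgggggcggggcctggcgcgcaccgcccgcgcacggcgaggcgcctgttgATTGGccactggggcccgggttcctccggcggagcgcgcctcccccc
Counted from the start of transcription, the box lies at -80 to -76 in MBD4, -97 to -93 in TDG and -47 to -43 in MSH6. PMS1 carries it at -52 to -48 and again at -35 to -31, and MBD4 has another at -129 to -125, upstream of the stretch shown. Windows of 250 bases before to 50 after a start were available for 7 members. Over the whole windows, CCAAT was found for 5 of the 7 (MSH6, PMS1, UNG, TDG, MBD4), and 34.6% of the 35116 windows of all genes hold it. MSH3 and EXO1, with all TQ arrays above control, have no CCAAT in their windows, and UNG, which has it, stood lower with TQ. The stretches shown were chosen on both traits, and a link between CCAAT and the TQ difference was not tested. The E2F words TTTCGCGC or TTTGGCGC, also searched on both strands, were found for MSH3, where the 2 words overlap at -107 to -96, and for EXO1 at 5 to 12, against 1.15% of all windows. CACGTG was found for UNG and TDG (7.26% of all windows), and the GC box GGGCGG for 6 members (45% of all windows). A gene can have several windows, so the counts of genes and the shares of windows are not on the same footing. A match is a run of letters and not a shown binding site.

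The deposited signals had medians between 6.33 and 6.55 on the log2 scale per array. The arrays of TQ cells and of control cells correlated with their own replicates at 0.997 to 0.998. 5-FU replicate 3 stood apart, with a mean correlation of 0.911 with its replicates and TQ+5-FU replicate 2 as its nearest array, and TQ+5-FU replicate 2 had a mean correlation of 0.978 with its own. These are called the 2 displaced arrays, and results are given with and without them. The mean poly-A spike-in signal was 9.47 in 5-FU replicate 3, against 8.22 and 8.36 in 5-FU replicates 1 and 2. It was 8.94 in TQ+5-FU replicate 2, against 8.24 and 8.42 in TQ+5-FU replicates 1 and 3. Control arrays had 8.50 to 8.97 and TQ arrays 8.41 to 8.84. Of the epithelial markers KRT18 (11.91 to 12.81) and EPCAM (8.37 to 9.61) were bright on every array. KRT8 lay between (6.25 to 7.77), while KRT19 (3.30 to 4.07) and CDH1 (3.48 to 4.06) stayed near the dim end. The mean over 5 leukocyte markers was 4.70 to 4.86 with TQ, 4.81 to 5.47 with 5-FU, 4.69 to 5.15 with both and 4.76 to 4.96 in control cells, and that over 5 fibroblast markers reached 5.42, both highest in 5-FU replicate 3. The fibroblast mean hides COL1A1, which gave 7.80 to 8.86 over all arrays and was brighter than KRT8. The other fibroblast markers stayed at 2.28 to 5.76. As a check that 5-FU acted, 7 of 9 measured p53 target genes rose with 5-FU and 0 fell (median log2 difference of 2.02, against 0.09 over all genes). Of all genes 4.32% rose and 2.97% fell in that test over 12 arrays. As RNA was taken from whole cultures, fewer cells with a transcript and less transcript per cell cannot be told apart.

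The displaced arrays bear on most of the members. Of the 15 member probe sets, 9 were lower in 5-FU replicate 3 than the average of 5-FU replicates 1 and 2 by more than 1 log2 unit, as were 17.8% of all probe sets, and 7 lay more than 2 units below (9.13% of all). The largest gaps were -3.28 for TDG, -2.85 for MBD4, -2.64 for EXO1 and -2.44 for MSH6 on their lead probe sets. UNG (0.10) and MSH3 (-0.16) stayed close to the other arrays, and SMUG1 lay above them (0.90). TQ+5-FU replicate 2 was shifted the same way, by less for the 2 brighter MSH6 probe sets, PMS1, EXO1, TDG 203743_s_at and MBD4 and by more for MSH3 (-0.73), with 2 member probe sets more than 1 unit below (8.12% of all) and SMUG1 again above (0.42). What sets these arrays apart was not tested.

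**Figure D1:**
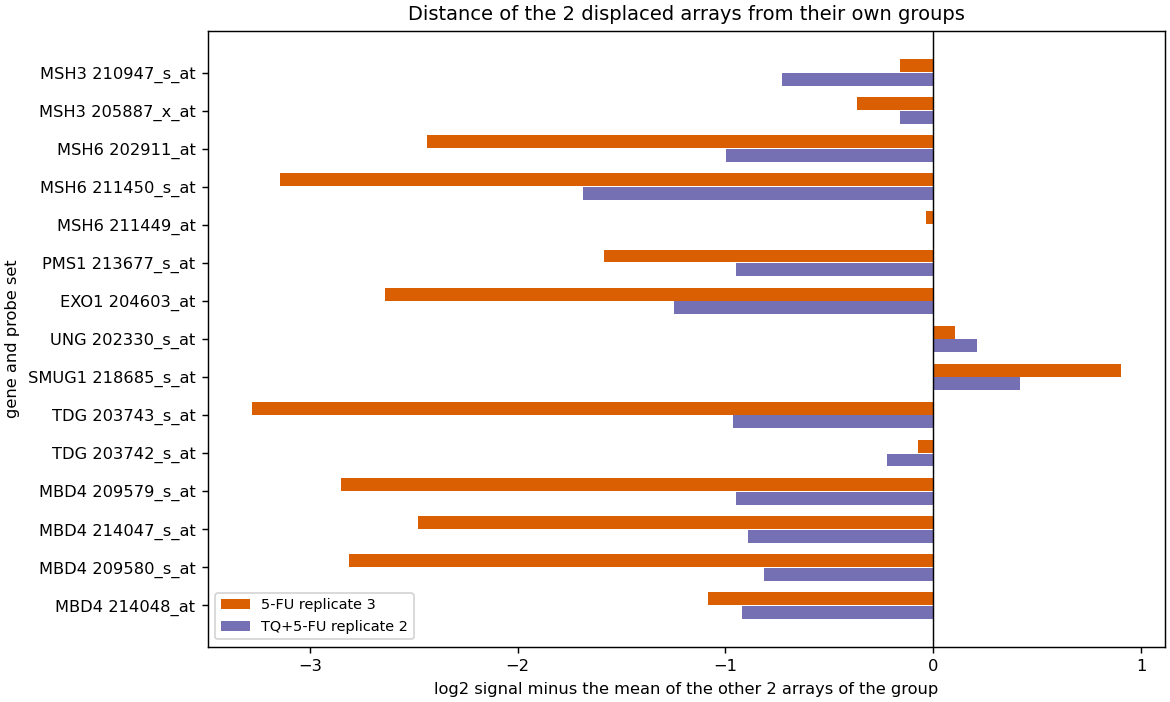
Distance of 5-FU replicate 3 and of TQ+5-FU replicate 2 from the mean of the other 2 arrays of their groups, in log2 units, for each of the 15 member probe sets (rows). In 5-FU replicate 3 the bars of PMS1, EXO1, TDG 203743_s_at, MBD4 and the 2 brighter MSH6 probe sets point far to the left, those of UNG, MSH3, MSH6 211449_at and TDG 203742_s_at are short, and that of SMUG1 points to the right.

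With TQ, the lead probe sets of 6 of the 8 genes stood higher than in control cells on every array: MSH6, PMS1, EXO1, TDG and MBD4 by 1.60-fold to 1.89-fold, and MSH3 by 1.20-fold. The glycosylase genes UNG and SMUG1 stood lower on every array, by 1.28-fold and 1.25-fold. In the fit of all 12 arrays with limma none of the 15 member probe sets passed an adjusted p of 0.05 (0.252% of all probe sets did). At an unadjusted p under 0.05 the members held 3 (9.71% of all), the methods' one-way comparison with Tukey's HSD called 0 (2.93% of all), and the methods' t-test called 12 unadjusted (35.3% of all) and 10 after Benjamini-Hochberg adjustment (16.2% of all). In the fit without the 2 displaced arrays 10 member probe sets rose and 2 fell, and 30.6% of all probe sets passed, 14.1% higher and 16.5% lower. Leaving out 5-FU replicate 3 alone gave 5 (8.05% of all). The log2 differences are the same in both fits, because neither displaced array is a TQ or control array, and only the shared spread differs: the standard error of MSH6 was 0.56 over 12 arrays and 0.13 without the 2.

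Among the MutS and MutL homologs, MSH6 had log2 signals of 10.22, 10.38 and 10.45 with TQ, against 9.76, 9.59 and 9.39 in control cells. PMS1 had 8.36, 8.55 and 8.51 with TQ, against 7.82, 7.54 and 7.31 in control cells. For both genes the lowest TQ array lay above the highest control array. MSH6 differed by 0.77 (adjusted p = 0.721 over 12 arrays) and rose in the fit without the 2 displaced arrays (95% interval 0.48 to 1.06, adjusted p = 0.00175). PMS1 differed by 0.92 (adjusted p = 0.524) and likewise rose without them (interval 0.57 to 1.27, adjusted p = 0.00204). MSH3, at 6.40, 6.37 and 6.19 with TQ against 6.16, 5.89 and 6.12 in control cells, was separated by a narrow gap and did not pass in either fit (0.26, adjusted p = 0.726 and 0.0940).

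The excision exonuclease EXO1 gave 8.50, 8.57 and 8.64 with TQ, against 8.20, 7.83 and 7.64 in control cells. The TQ arrays were the tighter group and lay above all controls. The difference of 0.68 had an adjusted p of 0.769 over 12 arrays, and EXO1 rose in the fit without the displaced arrays (interval 0.37 to 0.98, adjusted p = 0.00436).

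The glycosylases parted into a pair that stood higher and a pair that stood lower with TQ. TDG, which excises thymine or uracil opposite guanine, gave 9.65, 9.96 and 9.90 with TQ against 9.18, 8.96 and 8.88 in control cells. MBD4, a glycosylase of similar substrates with a domain that binds methylated CpG, gave 9.18, 9.51 and 9.55 with TQ against 8.68, 8.60 and 8.57 in control cells. Neither gene had an overlap between the groups. TDG differed by 0.83 and MBD4 by 0.80 (adjusted p = 0.761 and 0.741 over 12 arrays), and both rose without the 2 displaced arrays (adjusted p = 0.00185 and 0.000747).

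UNG, which removes most uracil from replicating DNA, gave 10.08, 10.27 and 10.18 with TQ against 10.55, 10.53 and 10.53 in control cells. The control arrays of UNG had an SD of 0.01. SMUG1, the glycosylase that also removes oxidized uracil derivatives, gave 7.67, 7.79 and 7.59 with TQ against 7.90, 8.03 and 8.11 in control cells. Both genes were separated from the controls in the downward direction. The log2 differences were -0.36 for UNG (unadjusted p = 0.00747, adjusted p = 0.245 over 12 arrays by limma) and -0.33 for SMUG1 (adjusted p = 0.717), and in limma's fit without the displaced arrays both fell (adjusted p = 0.00687 and 0.0283).

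Counted over probe sets, 11 of the 15 had all TQ arrays above all control arrays, where 16.6% of all probe sets did, and 2 had all TQ arrays below (27.8% of all). The median log2 difference of the 8 lead probe sets was 0.73, against -0.09 over all genes. In limma on the TQ and control arrays alone, 12 of the 15 passed, as did 29.5% of all probe sets, and these were the 2 brighter MSH6 probe sets and those of PMS1, EXO1, UNG, SMUG1, TDG and MBD4. The other MBD4 probe sets differed by 0.99, 0.92 and 1.25, the last on the dimmest of the 4, 214048_at (6.11, 6.48 and 6.56 with TQ against 5.30, 5.01 and 5.09 in control cells). The probe sets that did not pass were both of MSH3 and the MSH6 probe set 211449_at, which stayed at 3.42 to 3.61 on all arrays. That probe set and MSH3 205887_x_at (3.21 to 3.93) are at percentiles 10 and 12 of mean signal, and the files give no detection call.

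**Figure D2:**
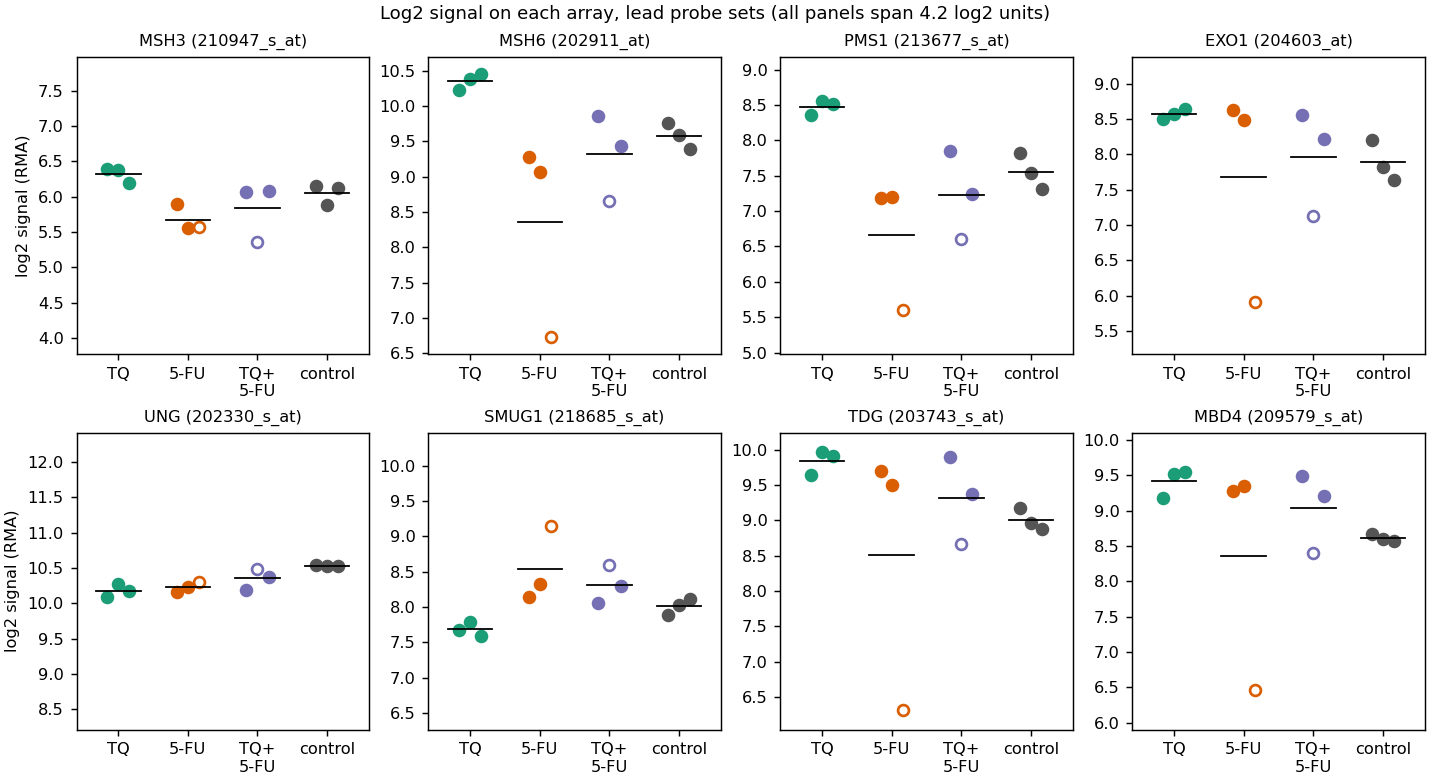
Log2 signal (vertical axis) of the lead probe set of each gene on every array, by group, with a line at the group mean and open circles for the 2 displaced arrays. TQ arrays lie above all control arrays for MSH3, MSH6, PMS1, EXO1, TDG and MBD4 and below them for UNG and SMUG1, and 5-FU replicate 3 falls far below its group for MSH6, PMS1, EXO1, TDG and MBD4.

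With 5-FU, what the members show depends on whether replicate 3 is counted. On replicates 1 and 2 EXO1, TDG and MBD4 stood above every control array, and on replicate 3 far below. MSH6 and PMS1 stood below every control array on all 3 replicates, UNG did as well, and SMUG1 stood above. Over 12 arrays 0 of the 15 member probe sets passed in limma, where 6.68% of all probe sets did. At an unadjusted p under 0.05 the members held 2 (18.5% of all), Tukey's HSD called 0 (6.26% of all), and the methods' t-test called 2 unadjusted, near the 11.6% of all probe sets, and 0 adjusted (1.19% of all). Without the 2 displaced arrays 6 member probe sets rose and 1 fell, with 26.1% of all probe sets passing (12.7% higher and 13.5% lower), and without 5-FU replicate 3 alone 2 passed (14.4% of all).

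MSH6 had log2 signals of 9.28, 9.06 and 6.73 with 5-FU, against 9.76, 9.59 and 9.39 in control cells. PMS1 had 7.19, 7.19 and 5.61 with 5-FU, against 7.82, 7.54 and 7.31 in control cells. MSH3 had 5.90, 5.55 and 5.56 with 5-FU, against 6.16, 5.89 and 6.12 in control cells. For MSH6 and PMS1 the groups did not overlap, and for MSH3 the highest 5-FU array lay just above the lowest control. The differences over 12 arrays were -1.22, -0.90 and -0.38 (adjusted p = 0.284, 0.292 and 0.346). They were -0.41, -0.37 and -0.33 without the displaced arrays and did not pass either (adjusted p = 0.0620, 0.170 and 0.0737).

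EXO1 gave 8.62, 8.48 and 5.91 with 5-FU, against 8.20, 7.83 and 7.64 in control cells. TDG gave 9.69, 9.51 and 6.32 with 5-FU, against 9.18, 8.96 and 8.88 in control cells. MBD4 gave 9.27, 9.35 and 6.46 with 5-FU, against 8.68, 8.60 and 8.57 in control cells. In each of these genes replicates 1 and 2 lay above the controls, replicate 3 below them, and the groups overlapped. The differences over 12 arrays were -0.22, -0.50 and -0.25 (adjusted p = 0.860, 0.716 and 0.837). They turned to 0.66, 0.59 and 0.70 without the displaced arrays, and the 3 genes rose (adjusted p = 0.00862, 0.0175 and 0.00165). These values then rest on 2 arrays with 5-FU against 3 of control cells.

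UNG gave 10.16, 10.23 and 10.30 with 5-FU, against 10.55, 10.53 and 10.53 in control cells. SMUG1 gave 8.15, 8.33 and 9.14 with 5-FU, against 7.90, 8.03 and 8.11 in control cells. Both were separated from the controls, UNG downwards and SMUG1 upwards, and the displaced array was the highest of its group in both. UNG differed by -0.30 (adjusted p = 0.153) and fell without the displaced arrays (-0.34, adjusted p = 0.0168). SMUG1 differed by 0.53 (adjusted p = 0.261), and by 0.23 without the displaced arrays (adjusted p = 0.165).

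Over the 15 probe sets, 5 had all 5-FU arrays below all controls (12% of all probe sets) and 2 had them above (12.5% of all). The 5 were the 2 brighter probe sets of MSH6, the dim one of MSH3, PMS1 and UNG, and the 2 were SMUG1 and TDG 203742_s_at. The median of the lead probe sets was -0.34 over 12 arrays, against 0.09 over all genes, and -0.05 without the displaced arrays, against -0.01 over all genes.

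**Figure D3:**
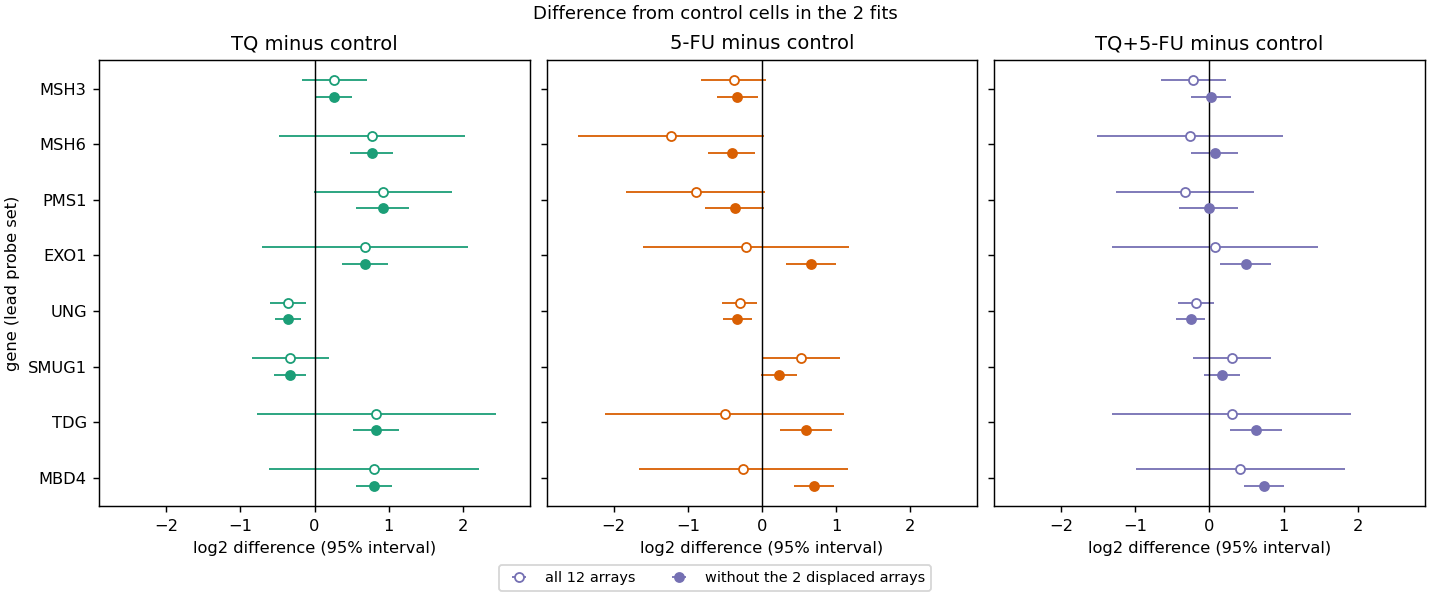
Log2 difference from control (horizontal axis) with its 95% interval for the lead probe set of each gene, in the fit of all 12 arrays (open points) and without the 2 displaced arrays (filled points). TQ points are the same in both fits with shorter intervals in the second, whereas for 5-FU the points of EXO1, TDG and MBD4 lie below 0 in the fit of 12 arrays and above 0 in the other.

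The probe sets of TDG gave different pictures of the displaced array. On 203742_s_at the log2 signals were 7.70, 7.97 and 7.88 with TQ, 7.78, 7.58 and 7.61 with 5-FU, 7.67, 7.39 and 7.57 with both and 7.47, 7.44 and 7.43 in control cells. Here 5-FU replicate 3 differed from the mean of its replicates by -0.07, where on 203743_s_at it differed by -3.28. All TQ and 5-FU arrays of 203742_s_at stood above all control arrays, with differences of 0.40 (adjusted p = 0.218) and 0.21 (adjusted p = 0.379) over 12 arrays. The TQ difference passed without the displaced arrays (adjusted p = 0.00688), and that of 5-FU did not (0.23, adjusted p = 0.118). The 4 probe sets of MBD4 were all lower in 5-FU replicate 3, with differences of -1.09 on 214048_at and of -2.85 to -2.48 on the others.

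**Figure D4:**
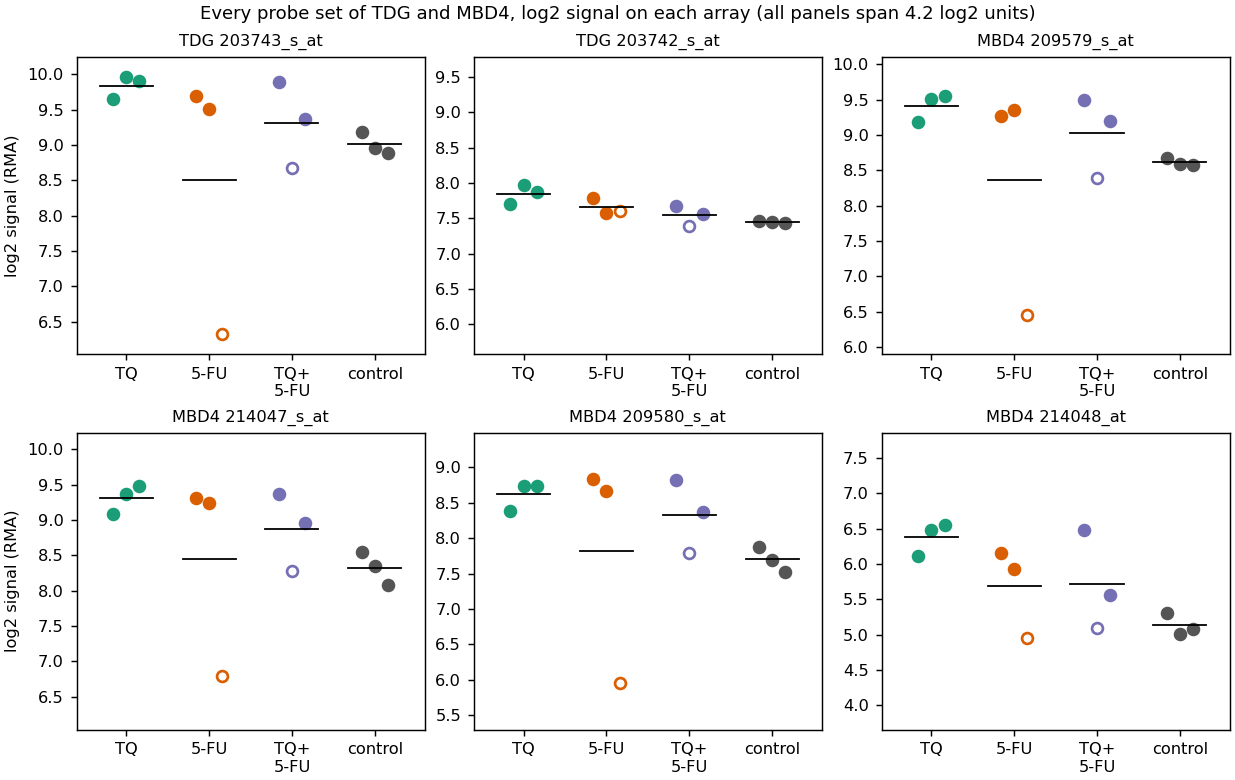
Log2 signal (vertical axis) of every probe set of TDG and MBD4 on each array, by group, with a line at the group mean and open circles for the 2 displaced arrays. 5-FU replicate 3 lies far below its group on TDG 203743_s_at and on the MBD4 probe sets, and within its group on TDG 203742_s_at.

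With TQ+5-FU, replicates 1 and 3 of EXO1, TDG and MBD4 stood above every control array and replicate 2 below, UNG stood below control on every array, and MSH3, MSH6 and PMS1 overlapped the controls. Over 12 arrays 0 member probe sets passed against control by limma (2.58% of all probe sets did), none had an unadjusted p under 0.05 (11.2% of all), the methods' t-test called 0 unadjusted (16% of all) and 0 adjusted (2.46% of all), and Tukey's HSD called 0 (4.62% of all). Without the displaced arrays 6 rose and 0 fell (21.4% of all passed, 10.7% in each direction), and these were EXO1, TDG 203743_s_at and the 4 probe sets of MBD4. The comparisons of TQ, 5-FU and TQ+5-FU share the control arrays.

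EXO1 gave 8.55, 7.13 and 8.21 with TQ+5-FU, against 8.20, 7.83 and 7.64 in control cells. TDG gave 9.89, 8.67 and 9.37 with TQ+5-FU, against 9.18, 8.96 and 8.88 in control cells. MBD4 gave 9.49, 8.40 and 9.20 with TQ+5-FU, against 8.68, 8.60 and 8.57 in control cells. In all 3 genes replicate 2 lay below every control array and replicates 1 and 3 above. The differences were 0.07, 0.30 and 0.42 over 12 arrays (adjusted p = 1.000 for each) and 0.49, 0.63 and 0.73 without the displaced arrays (adjusted p = 0.0446, 0.0168 and 0.00203).

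MSH6 gave 9.86, 8.65 and 9.44 with TQ+5-FU, against 9.76, 9.59 and 9.39 in control cells. PMS1 gave 7.86, 6.60 and 7.24 with TQ+5-FU, against 7.82, 7.54 and 7.31 in control cells. MSH3 gave 6.07, 5.35 and 6.09 with TQ+5-FU, against 6.16, 5.89 and 6.12 in control cells. The groups overlapped in each. Differences of -0.26, -0.33 and -0.22 over 12 arrays became 0.069, -0.0096 and 0.023 without the displaced arrays, and none passed. The intervals without the displaced arrays run to 0.25 below and 0.39 above control for MSH6, and to 0.40 below and 0.38 above for PMS1.

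UNG gave 10.19, 10.49 and 10.38 with TQ+5-FU, against 10.55, 10.53 and 10.53 in control cells. SMUG1 gave 8.05, 8.59 and 8.30 with TQ+5-FU, against 7.90, 8.03 and 8.11 in control cells. Only UNG and the dim MSH6 probe set 211449_at had all TQ+5-FU arrays below all controls (12.5% of all probe sets did), and 0 members had them above (11.5% of all). UNG differed by -0.18 (adjusted p = 0.710) and by -0.25 without the displaced arrays (adjusted p = 0.0708). The median of the lead probe sets was -0.05, against 0.01 over all genes, and turned to 0.12 without the displaced arrays, against -0.03 over all genes.

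Set against 5-FU directly, TQ left PMS1 higher and SMUG1 lower. These were the only 2 of the 15 member probe sets that passed in limma over 12 arrays. Of all probe sets 10.2% passed (3.57% higher and 6.61% lower with TQ), and a count of 2 in 15 is near that share. At an unadjusted p under 0.05 the members held 6 (31.6% of all). PMS1 gave 8.36, 8.55 and 8.51 with TQ, against 7.19, 7.19 and 5.61 with 5-FU, a difference of 1.81 (standard error 0.42, adjusted p = 0.0238). SMUG1 gave 7.67, 7.79 and 7.59 with TQ, against 8.15, 8.33 and 9.14 with 5-FU, a difference of -0.86 (standard error 0.24, adjusted p = 0.0454). In neither gene did the groups overlap. MSH6 had the largest difference of the lead probe sets, 1.99 (standard error 0.56), and just missed (adjusted p = 0.0505).

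The PMS1 and SMUG1 calls rest on few arrays. Leaving out any single TQ array left 0 member probe sets past the threshold (3.28% to 5.1% of all). Leaving out any single control array left 1 (6.56% to 7.08% of all), as did leaving out TQ+5-FU replicate 1 or 3 (9.28% and 6.99% of all). Leaving out TQ+5-FU replicate 2 gave 4 (11.3% of all), and leaving out 5-FU replicate 1 gave 6 (19% of all). Without 5-FU replicate 2 or 3 the count was within 0 to 6 (10.1% and 13.7% of all). With replicate number as a block 1 passed (6.87% of all), in the methods' Tukey comparison 0 (5.94% of all), and in limma on the TQ and 5-FU arrays alone 0 (0.882% of all). Without the displaced arrays 6 member probe sets passed (28.6% of all, 14% higher and 14.6% lower): MSH6 stood 1.18 higher, PMS1 1.29 higher and MSH3 0.59 higher with TQ than with 5-FU (adjusted p = 0.000183, 0.000379 and 0.00423), and SMUG1 differed by -0.56 (adjusted p = 0.00328). Of all 15 member probe sets, 5 had every TQ array above every 5-FU array (16.2% of all), namely those of MSH3, PMS1 and the 2 brighter of MSH6, and SMUG1 had every one below (22.6% of all). TDG, MBD4, EXO1 and UNG differed between TQ and 5-FU by 0.24, 0.10, 0.017 and -0.022 without the displaced arrays, and did not pass. Their 95% intervals there were -0.11 to 0.59, -0.17 to 0.37, -0.32 to 0.36 and -0.22 to 0.17.

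When 5-FU was added to TQ, MSH6 and PMS1 stood lower than with TQ alone. Every TQ+5-FU array of MSH6 (9.86, 8.65 and 9.44) lay below every TQ array (10.22, 10.38 and 10.45), and every TQ+5-FU array of PMS1 (7.86, 6.60 and 7.24) lay below every TQ array (8.36, 8.55 and 8.51). SMUG1 was separated the other way, at 8.05, 8.59 and 8.30 with TQ+5-FU against 7.67, 7.79 and 7.59 with TQ. Over 12 arrays the differences were -1.03, -1.24 and 0.63 (adjusted p = 0.517, 0.241 and 0.305), and 0 member probe sets passed by limma, against 0.968% of all. At an unadjusted p under 0.05 the members held 5 (12.1% of all). Without the displaced arrays MSH6 fell by 0.70 (adjusted p = 0.0126), PMS1 fell by 0.93 (adjusted p = 0.00910) and SMUG1 rose by 0.49 (adjusted p = 0.0175), with MSH6 211450_s_at as the other call (-0.89) and 11.7% of all probe sets passing (7.03% higher and 4.7% lower). The same number, 4, passed without 5-FU replicate 3 alone (12.1% of all). Of the 15, 6 had all TQ+5-FU arrays below all TQ arrays (11% of all) and 1 above (18.2% of all). Tukey's HSD called 0 (3.99% of all).

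When TQ was added to 5-FU, no member was separated from its level with 5-FU alone over all 12 arrays. In each of the 15 probe sets the TQ+5-FU and 5-FU arrays overlapped, where 4.55% of all probe sets had TQ+5-FU above and 5.28% below. A count of 0 in 15 is near these shares, and each group holds a displaced array. On the other arrays MSH6 gave 9.86 and 9.44 with TQ+5-FU against 9.28 and 9.06 with 5-FU. PMS1 gave 7.86 and 7.24 against 7.19 and 7.19, and MSH3 6.07 and 6.09 against 5.90 and 5.55. In each TQ+5-FU stood above 5-FU, while the other lead probe sets and MSH6 211450_s_at overlapped. The share of all probe sets that do so was not counted. Over 12 arrays 0 passed by limma (0.738% of all), 0 had an unadjusted p under 0.05 (9.49% of all), and Tukey's HSD called 0 (3.48% of all). Leaving out the displaced arrays, 0 passed (6.13% of all) and 2 had an unadjusted p under 0.05 (19.6% of all): MSH6 (0.48, interval 0.13 to 0.83, adjusted p = 0.114) and MSH3 (0.35, interval 0.056 to 0.65, adjusted p = 0.168). PMS1 differed by 0.36 with a wider interval, -0.07 to 0.79. The array-weighted fit called 1 (20.3% of all).

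The interaction is the difference of TQ+5-FU from control minus those of TQ and of 5-FU, so that 0 stands for additive log2 differences. Over 12 arrays 0 member probe sets passed in limma (0.126% of all did), and 3 had an unadjusted p under 0.05 (6.09% of all). When the displaced arrays were left out 6 passed, all below 0, against 9.89% of all probe sets (4.53% below 0): EXO1 at -0.85 (adjusted p = 0.0364), TDG at -0.80 (adjusted p = 0.0485) and MBD4 at -0.76 (adjusted p = 0.0234) with its other 3 probe sets. In these genes TQ, 5-FU and the combination each stood above control by similar amounts: 0.80, 0.70 and 0.73 for MBD4, 0.83, 0.59 and 0.63 for TDG, and 0.68, 0.66 and 0.49 for EXO1. UNG was the same case with the sign turned, at -0.36 with TQ, -0.34 with 5-FU and -0.25 with both, and its interaction of 0.44 just missed (adjusted p = 0.0504). PMS1 (-0.56, interval -1.12 to -0.0025, adjusted p = 0.191), MSH6 (-0.29, interval -0.75 to 0.16), MSH3 (0.09) and SMUG1 (0.26) did not pass. The other TDG probe set, 203742_s_at, did not pass either (-0.47, adjusted p = 0.0629).

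**Figure D5:**
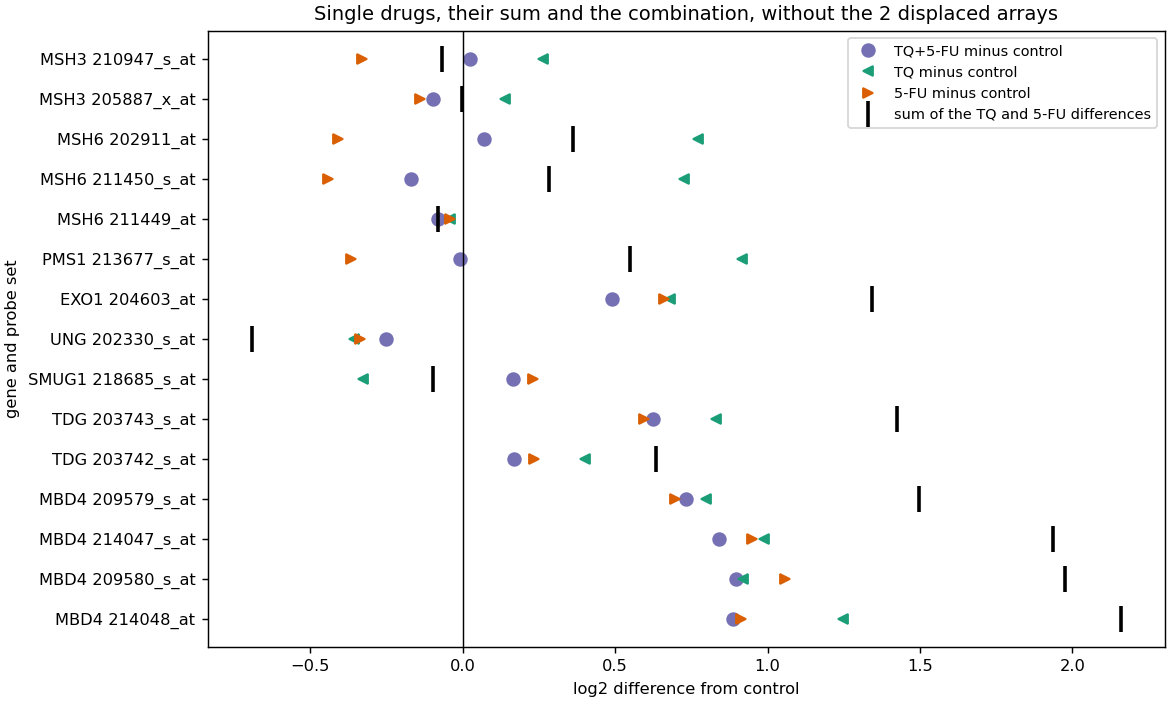
Log2 difference from control (horizontal axis) for TQ+5-FU, TQ and 5-FU and the sum of the TQ and 5-FU differences (black bars), for each of the 15 member probe sets without the 2 displaced arrays. For EXO1, TDG and MBD4 the points of TQ, 5-FU and TQ+5-FU lie close together and left of the sum, and for PMS1 and the 2 brighter MSH6 probe sets the TQ point lies on the right of 0 and the 5-FU point on the left.

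Across the 4 groups 0 of the 15 member probe sets passed the F test of limma over 12 arrays (7.54% of all did), and 8 had an unadjusted p under 0.05 (21.1% of all), with PMS1 the smallest (adjusted p = 0.0888). The methods' one-way comparison gave 0 (7.51% of all). In the fit without the displaced arrays 13 passed (42% of all), at least 1 for each of the 8 genes.

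Other genes of these pathways were put to the same test over 12 arrays. The counts of these short lists were not tested against the shares of all genes. Of all genes 0.267% passed with TQ, 7.29% with 5-FU and 2.63% with TQ+5-FU. Without the 2 displaced arrays these shares were 32.4%, 28.3% and 22.7%. Of 16 measured genes of mismatch repair and the resynthesis of the excised strand, 0 rose or fell with TQ, 1 rose with 5-FU and 0 passed with both. The gene that rose was POLD4, the small subunit of DNA polymerase delta (1.21, adjusted p = 0.0115). Without the displaced arrays 6 rose and 4 fell with TQ, 5 rose and 2 fell with 5-FU, 3 rose and 2 fell with TQ+5-FU, and the list's median was 0.11 with TQ, against -0.09 over all genes. MLH3, a MutL homolog, was among those that rose with TQ in that fit (0.53, adjusted p = 0.00356), while POLD1, the catalytic subunit of the same polymerase, fell (-0.58, adjusted p = 0.00127).

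Of 15 other genes of base excision repair, 0 passed with TQ over 12 arrays, and 2 fell with 5-FU. LIG3, the ligase that partners XRCC1, fell by 0.85 (adjusted p = 0.000481) and APEX1, the abasic site endonuclease, by 0.35 (adjusted p = 0.04998). LIG3 also fell with both drugs, by 0.42 (adjusted p = 0.0415). Without the displaced arrays 2 rose and 6 fell with TQ, 3 rose and 4 fell with 5-FU, 2 rose and 4 fell with TQ+5-FU, and POLB, the gap-filling polymerase, rose in each, by 0.24 with TQ, 0.75 with 5-FU and 0.83 with TQ+5-FU.

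Of 12 measured genes of thymidylate and dUTP supply, TK1, thymidine kinase, rose with 5-FU (1.05, adjusted p = 0.0111), and 0 passed with TQ or both. In the fit without the displaced arrays 1 rose and 2 fell with TQ, 3 rose and 3 fell with 5-FU, and 1 rose and 3 fell with TQ+5-FU. DUT, the dUTPase that keeps uracil out of DNA, had -0.22 with 5-FU (adjusted p = 0.265) and fell without the displaced arrays (-0.28, adjusted p = 0.0129). Of 17 S-phase replication genes 0 passed with TQ, 2 rose and 1 fell with 5-FU, and 1 rose and 1 fell with both. Without the displaced arrays 2 rose and 7 fell with TQ, 5 rose and 5 fell with 5-FU, and 3 rose and 9 fell with TQ+5-FU. The helicase subunit gene MCM7 fell with 5-FU and with both (-0.69 and -0.74), the cyclin E gene CCNE1 rose with 5-FU and with both (0.56 and 0.70), and CHAF1B, a chromatin assembly factor subunit, rose with 5-FU (0.42). With TQ the median of these replication genes was -0.23 and that of the 8 repair members 0.73. Rises with TQ were not particular to the members. The 2 replication genes that rose without the displaced arrays were CCNE2 (1.59) and MCM6 (0.59). In that fit RFC3 (0.71), RFC1 (0.66), RFC4 (0.65) and POLD3 (0.58) rose among the resynthesis genes, where 4 genes fell. RRM1 (0.89) rose among the supply genes, where 2 fell.

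As a description over the 12 arrays, the profiles of TDG and MBD4 were closest among the members, with a root mean square difference of 0.17 log2 units after each was centred on its mean, followed by EXO1 and MBD4 (0.21) and MSH6 and PMS1 (0.26). SMUG1 was the farthest from the others, at 1.35 from MSH6. Its smallest distance was to UNG (0.40), but the measure is not scaled and UNG varied little. The SD of the centred profile was 0.16 for UNG and 0.41 for SMUG1, so this distance shows no likeness. With 5-FU, SMUG1 differed from control by 0.53 and UNG by -0.30. All 12 arrays enter these values, 5-FU replicate 3 included. For the 3 members with the smallest F p, the nearest genes on the array were MGA, ICE2 and UPF2 for PMS1 (0.11, 0.11 and 0.13, where the median over all genes was 0.95), KDM6B, KHNYN and EOLA1 for SMUG1 (0.08 each, median 0.34), and BRD9, PCCB and ZDHHC7 for UNG (0.06 each, median 0.29).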

How the data were processed

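RNA of RKO cells was hybridised to Affymetrix expression arrays, 12 in all and 3 per group. The deposited values are log2 signals that the authors made by robust multi-array averaging (RMA), which corrects background, sets the arrays to one distribution and summarises probes. The methods name GeneSpring GX for this step and the submitters' processing notes Affymetrix Expression Console, so the tool is not settled. RMA scales all arrays to one distribution, so a change of all transcripts together is not seen. Of 22277 probe sets 62 controls were left out and 22215 tested. The platform annotation names 1 gene for 19064 of these, several for 1043 and none for 2108. Arrays have no read depth, and 3 per group limit the precision.

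Groups were taken from the labels. A linear model over the 4 groups was fitted to all probe sets with limma 3.58.1 in R 4.3.3, with two-sided tests and Benjamini-Hochberg adjustment over 22215 probe sets. A call is an adjusted p under 0.05. Exact permutation of 3 against 3 arrays cannot go below 0.1 and was not used. The lead probe set of a gene has the highest mean signal. All members are named, and of each pathway list, per comparison with control, up to 3 genes past the threshold with the largest change over 12 arrays. MLH3, POLD1, POLB, DUT, CCNE2, MCM6, RFC1, RFC3, RFC4, POLD3 and RRM1 were named after their values were seen. Members, lists and the leaving out of the 2 displaced arrays were chosen with earlier results of these data known. Alternatives were the fit without these arrays, without each array, array weights, replicate block, groups compared only, quantile normalization, median centring, a filter on the dimmest 30% of probe sets, trend and robust fitting, the mean of a gene's probe sets, and the methods' own tests. The scripts were tested on simulated data. Motifs were searched with Python 3.11.15 and plots drawn with matplotlib 3.10.9.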

Additional observations from a re-analysis of the deposited data

Results flagged for a closer look

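In the fit without the 2 displaced arrays, the difference between TQ+5-FU and control departed from the sum of the TQ and 5-FU differences, by limma's interaction term, for 3 genes. The departure was -0.85 for EXO1 (adjusted p = 0.0364) and -0.80 for TDG 203743_s_at (adjusted p = 0.0485). For MBD4 it was -0.76, -1.09, -1.08 and -1.27 on its 4 probe sets (adjusted p = 0.0234, 0.0178, 0.0177 and 0.0349). Over all 12 arrays 0 members passed this test, and the 5-FU and TQ+5-FU groups hold 2 arrays each in the smaller fit.

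The poly-A spike-ins, which no comparison uses, had a mean log2 signal of 9.47 in 5-FU replicate 3, above the highest control array at 8.97. Their part in the member values of that array was not tested. With 3 arrays per group no single array was tested against its group.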

How the results depend on the processing

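Counts are member probe sets called of 15, with shares of all probe sets in parentheses where the report does not give them. Over all 12 arrays they were 2 for TQ against 5-FU and 0 otherwise. Without the 2 displaced arrays they were 12 for TQ, 7 for 5-FU and 6 for TQ+5-FU against control, 4 for TQ+5-FU against TQ, 6 for TQ against 5-FU, 6 for the interaction and 13 for the F test. With array weights they were 14 for TQ (48.2%), 12 for 5-FU (36.5%) and 10 for TQ+5-FU (43%) against control, 1 for TQ+5-FU against 5-FU, 11 against TQ (44.2%), 7 for TQ against 5-FU (39.9%), 11 for the interaction (36.3%) and 14 for the F test (67.8%). In the groups compared only, TQ had 12 and TQ against 5-FU 0. The methods' t-test gave 12 unadjusted (35.3%) and 10 adjusted (16.2%) for TQ and 2 unadjusted for 5-FU (11.6%), and Tukey's HSD 0 for TQ against 5-FU. Leaving out each array in turn gave 0 to 5 for TQ, 0 to 2 for 5-FU, 0 to 4 for TQ+5-FU against TQ, 0 to 6 for TQ against 5-FU and 0 to 6 for the F test (21.2% at its highest, without 5-FU replicate 3), and 0 otherwise. The cause was not tested.

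Signs turned as follows. Without the 2 displaced arrays the 5-FU differences were 0.66 for EXO1, 0.59 for TDG and 0.70 for MBD4, and those of TQ+5-FU 0.023 for MSH3 and 0.069 for MSH6. With array weights they were 0.64, 0.56 and 0.70 for the same 3 genes with 5-FU and 0.11 for MSH3 with TQ+5-FU. The mean of its probe sets gave MBD4 0.13 with 5-FU. Leaving out each array gave, with 5-FU, -0.69 to 0.66 for EXO1, -1.09 to 0.59 for TDG and -0.75 to 0.70 for MBD4, and, with TQ+5-FU, -0.34 to 0.023 for MSH3, -0.54 to 0.069 for MSH6 and -0.22 to 0.49 for EXO1. Quantile normalization, median centring, trend and robust fitting and the filter on dim probe sets turned no sign of the 8 genes against control.

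With replicate number as a block, TQ against 5-FU had 1 call and no other count changed. The numbers were not shown to pair the arrays. Over 18 same-numbered pairs the deviations from the group means had a mean correlation of -0.08 (-0.84 to 0.86), and 6 were over 0.1. Over 36 differently numbered pairs the mean was 0.06 (-0.88 to 0.88), and 19 were over 0.1. Deviations were thus shared across groups: 5-FU replicate 3 and TQ+5-FU replicate 2 correlated at 0.88. Control replicate 3 correlated with these 2 arrays at 0.61 and 0.66, and TQ replicate 1 at 0.64 and 0.62. What they share was not tested.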
